A study of Mus musculus with 59 samples.

Results

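The genes described here are 7 genes of thyroid hormone transport, activation, binding and response, Slco1c1, Dio2, Crym, Thra, Thrb, Hr and Nrgn, out of 18088 genes in the deposited table. They were chosen by name, as known transporters, enzymes, receptors and targets of the hormone, with earlier results of these data known. All 7 were found in the table and passed the filter on low values. Messenger RNA of the prefrontal cortex was sequenced in 59 C57BL/6J mice of both sexes, analysed on postnatal day 25. Pups carried 1 knock-in copy of Shank3 (heterozygotes, HT) or none (wild type, WT), and between postnatal days 3 and 24 they took in lithium, fluoxetine or vehicle with their mother's milk. All data columns begin with L68P, which the labels do not explain. Lithium is a mood stabilizer, fluoxetine a serotonin reuptake inhibitor, and Shank3 a scaffold protein of excitatory synapses. There were 10 libraries each of HT lithium, HT fluoxetine, HT vehicle, WT fluoxetine and WT vehicle mice and 9 of WT lithium mice, with 5 females and 5 males per group except for 4 WT lithium females. The labels name no litters, so p-values count pups as independent although pups of a dam may have shared its milk, and the dose that reached a pup is not given in the sources used here.

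Thyroid hormone reaches the brain in good part as thyroxine, which enters through transporters of the blood-brain barrier, among them the product of Slco1c1 in rodents. In astrocytes the deiodinase encoded by Dio2 turns thyroxine into the active hormone triiodothyronine, which neurons take up and which Crym, a cytosolic binding protein, can hold. Triiodothyronine acts through the nuclear receptors Thra and Thrb, which switch between corepressors and coactivators, and in the developing rodent cortex it raises targets such as Hr, itself a nuclear receptor corepressor, and Nrgn, a calmodulin-binding protein of dendrites. Lithium is known to lower hormone release from the thyroid gland, and hormone levels were not among the data analysed here.

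Of the 7 genes, Hr alone passed a test. It averaged 1502 ± 212 in HT lithium and 1127 ± 218 normalized counts in HT vehicle mice (SD, n = 10 each), and did not pass in WT lithium mice, where no gene of the 7 did. The HT difference did not pass once 9 libraries high in markers of other tissue or low in mitochondrial reads were left out (log2 fold change 0.25, adjusted p = 0.0631, limma). Over both genotypes Hr was called for each drug, and both calls ended under some other settings. Nrgn had its lowest level in WT lithium mice. Its difference from WT vehicle mice did not pass the test in its main form and passed under some other settings. Dio2 and Slco1c1 differed by less than the spread between libraries in every drug comparison but rose and fell together from library to library. Outside the 7, the receptor coactivator Ncoa3 rose under lithium in both genotypes, where 1 of 12 receptors and coregulators rose in HT and 3 of 12 in WT mice, against 10.9% and 7.66% of all tested genes.

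RefSeq promoter windows (GRCm38.p6, 250 bases before to 50 bases after the start site) were at hand for 4 of the 7 genes, Slco1c1, Nrgn, Dio2 and Thrb, with 2 windows for Thrb. Those of both pairs that moved together most closely across libraries, Dio2 with Slco1c1 and Thrb with Nrgn, are shown so that the letters behind each pair can be compared. Capitals mark TGACGTCA, the cyclic AMP response element, in the Dio2 window and AGGTCA, the half-site bound by thyroid hormone receptors and other nuclear receptors, in the first Thrb window.
Dio2, chr12:90738989-90739288, minus strand: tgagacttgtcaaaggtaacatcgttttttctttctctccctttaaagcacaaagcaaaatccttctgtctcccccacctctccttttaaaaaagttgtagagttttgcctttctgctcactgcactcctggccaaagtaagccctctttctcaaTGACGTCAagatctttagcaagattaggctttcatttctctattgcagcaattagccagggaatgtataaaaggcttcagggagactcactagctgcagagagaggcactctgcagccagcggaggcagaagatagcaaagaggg
Slco1c1, chr6:141524104-141524403, plus strand: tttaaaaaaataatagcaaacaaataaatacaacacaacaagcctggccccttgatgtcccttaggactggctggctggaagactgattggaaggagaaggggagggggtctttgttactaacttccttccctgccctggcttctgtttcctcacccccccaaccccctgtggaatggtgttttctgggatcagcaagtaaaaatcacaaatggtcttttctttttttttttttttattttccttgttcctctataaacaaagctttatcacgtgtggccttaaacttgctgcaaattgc
Thrb, chr14:17660710-17661009, plus strand: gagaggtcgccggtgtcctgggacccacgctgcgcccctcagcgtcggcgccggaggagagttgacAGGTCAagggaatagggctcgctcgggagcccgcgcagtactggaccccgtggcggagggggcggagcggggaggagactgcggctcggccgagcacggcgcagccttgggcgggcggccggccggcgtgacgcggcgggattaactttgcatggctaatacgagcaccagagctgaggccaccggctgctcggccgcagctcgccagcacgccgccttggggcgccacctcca
Nrgn, chr9:37552696-37552995, minus strand: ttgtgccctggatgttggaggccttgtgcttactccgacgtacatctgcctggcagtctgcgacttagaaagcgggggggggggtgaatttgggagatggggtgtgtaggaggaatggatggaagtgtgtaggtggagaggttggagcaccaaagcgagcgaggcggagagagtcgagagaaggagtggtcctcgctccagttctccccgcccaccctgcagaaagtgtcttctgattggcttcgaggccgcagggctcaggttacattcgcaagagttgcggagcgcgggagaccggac
The windows were searched on both strands for these motifs and for the direct repeat of AGGTCA with NNNN between its copies, so that every repeat also counts as a half-site. The half-site lay at -184 in the first Thrb window and was held by 16.3% of 32851 RefSeq promoter windows of the same length. The response element lay at -95 in the Dio2 window and was held by 1.79% of them. The direct repeat was in 0.0152% of all windows and in none of the 5 windows of these genes. A match is a description of letters and not of a bound site.

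All 59 libraries held between 22984556 and 35969254 recovered reads. Markers of excitatory cortical neurons such as Slc17a7 and Neurod2 were present, and all 8 passed the filter on low values. Markers of the olfactory bulb, which lies in front of the prefrontal cortex, varied far more. A bulb index averaged 8 such markers after each was divided by its own mean over the 59 libraries; all 8 were detected. Their summed normalized counts ran from 292 to 12543 in HT lithium, 403 to 10631 in HT fluoxetine, 340 to 12740 in HT vehicle, 669 to 10512 in WT lithium, 339 to 17624 in WT fluoxetine and 441 to 9456 in WT vehicle libraries. Of the libraries, 8 stood apart, with a bulb index over 2.5 or under 5% mitochondrial reads. They were 2 HT lithium females, 1 HT fluoxetine male, 2 HT vehicle males and 3 WT fluoxetine females, and results that rest on them are given with and without them. HT vehicle female 1, which is not among the 8, stood apart by markers of the choroid plexus, the tissue that makes cerebrospinal fluid: they summed to 53314 normalized counts there, against 85.6 to 406.1 in the other 58 libraries, and its bulb index was 2.47. Shank3 averaged 9853 ± 1041 in HT lithium, 7922 ± 750 in HT fluoxetine and 7351 ± 1003 normalized counts in HT vehicle libraries (SD, n = 10 each). It averaged 7726 ± 642 in WT lithium, 7609 ± 1592 in WT fluoxetine and 7456 ± 797 in WT vehicle libraries (SD, n = 9, 10 and 10), and a gene count does not show the knock-in allele.

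The level of a gene is given below as a normalized count, the authors' read count divided by the library's size factor, and a difference as a log2 fold change with its standard error (SE), on the scale of log2(normalized count + 1). A gene was called where limma's p, adjusted by Benjamini and Hochberg over all 16599 genes tested, was under 0.05. In bulk tissue fewer cells of a type and less RNA per cell cannot be told apart. Levels can be compared between genes per kilobase of the longest annotated transcript. On that scale Nrgn averaged 23493 and Thra 8795 normalized counts per kilobase over the 59 libraries, Dio2 850, Crym 826 and Slco1c1 721, and Thrb 264 and Hr 235. By this count, which does not separate the transcripts of a gene, Thra therefore stood well above Thrb, the other receptor. Within a gene the 6 arms lay close together. The ratio of the highest to the lowest arm mean was 1.33 for Hr, 1.26 for Nrgn, 1.25 for Slco1c1, 1.21 for Dio2 and between 1.10 and 1.12 for Thra, Thrb and Crym. When the 6 arms of each gene were put in order of their means, no neighbouring pair differed by more than the larger of its SDs, and the HT lithium arm stood first for 5 of the 7 genes (Hr, Thra, Dio2, Slco1c1 and Nrgn). Sorting 6 means makes the steps between neighbours small, so this does not compare arms farther apart. The share of all genes with HT lithium as the highest arm was not computed.

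Transport into the brain is represented by Slco1c1 (chr6:141524368-141570177, GRCm38, plus strand). Its counts ran from 1502 through a median of 2488 to 3469 in HT lithium, from 1780 through 2466 to 2987 in HT fluoxetine and from 1938 through 2312 to 2691 in HT vehicle libraries. They ran from 1614 through 2095 to 2593 in WT lithium, from 1389 through 2332 to 2601 in WT fluoxetine and from 1916 through 2239 to 2504 in WT vehicle libraries. Drug and vehicle arms overlapped in each genotype; 4 of 10 HT lithium libraries lay above the highest HT vehicle library, and 4 of 9 WT lithium libraries lay below the lowest WT vehicle library. The log2 fold change was 0.11 ± 0.10 for lithium in HT mice (SE, adjusted p = 0.478, limma) and -0.14 ± 0.10 in WT mice (adjusted p = 0.423). Under lithium, HT mice averaged 2551 ± 571 and WT mice 2034 ± 304 normalized counts (SD, n = 10 and 9). That difference, 0.29 ± 0.10, did not pass over all genes (adjusted p = 0.3). Without the 8 libraries that stood apart it was 0.44 with an adjusted p of 0.0305, where 40 of 16599 tested genes were called. Those 8 include HT lithium females 4 and 5, which had the lowest Slco1c1 counts of the HT lithium females. Other transporters were Slc16a10, Slc7a5, Slc7a8 and Slco1a4, with Slc3a2, the heavy chain that Slc7a5 and Slc7a8 need. Slc3a2 rose under lithium in HT mice (0.18 ± 0.05, adjusted p = 0.00551), a call that ended without the libraries that stood apart (0.12, adjusted p = 0.13).

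Activation is represented by Dio2 (chr12:90724552-90738438, minus strand). Its counts ran from 3844 through a median of 5481 to 7313 in HT lithium, from 3715 through 5090 to 6904 in HT fluoxetine and from 3984 through 4823 to 5611 in HT vehicle libraries. They ran from 3519 through 4804 to 6627 in WT lithium, from 2229 through 4711 to 6245 in WT fluoxetine and from 3772 through 4561 to 5334 in WT vehicle libraries. Drug and vehicle arms overlapped in each genotype, and 4 of 10 HT lithium libraries lay above the highest HT vehicle library while 2 lay below the lowest. Dio2 differed by 0.18 ± 0.12 for lithium in HT mice (SE, adjusted p = 0.32, limma) and by 0.10 ± 0.12 in WT mice (adjusted p = 0.665). For fluoxetine the values were 0.06 ± 0.12 in HT and 0.0024 ± 0.12 in WT mice. The 95% interval for lithium in HT mice, -0.06 to 0.42, includes 0. Dio3, the enzyme that inactivates the hormone, was at -0.33 ± 0.18 for lithium in HT mice (adjusted p = 0.204) and -0.06 ± 0.19 in WT mice, and Dio1 was not analysed here.

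Crym (chr7:120186380-120202111, minus strand), which binds triiodothyronine in the cytosol, had the widest spread of the 7 genes, with a coefficient of variation of 21.1% over the 59 libraries. It averaged 2321 ± 535 in HT lithium, 2349 ± 413 in HT fluoxetine and 2246 ± 522 normalized counts in HT vehicle libraries (SD, n = 10 each). It averaged 2163 ± 430 in WT lithium, 2090 ± 602 in WT fluoxetine and 2106 ± 297 in WT vehicle libraries (SD, n = 9, 10 and 10), with single libraries between 1019 and 2881 and overlap of all arms. Its fold changes under either drug lay between -0.06 and 0.08 in both genotypes, with standard errors of 0.15 to 0.16, and its sign changed under at least 1 other setting in each of the 4 comparisons.

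**Figure D1:**
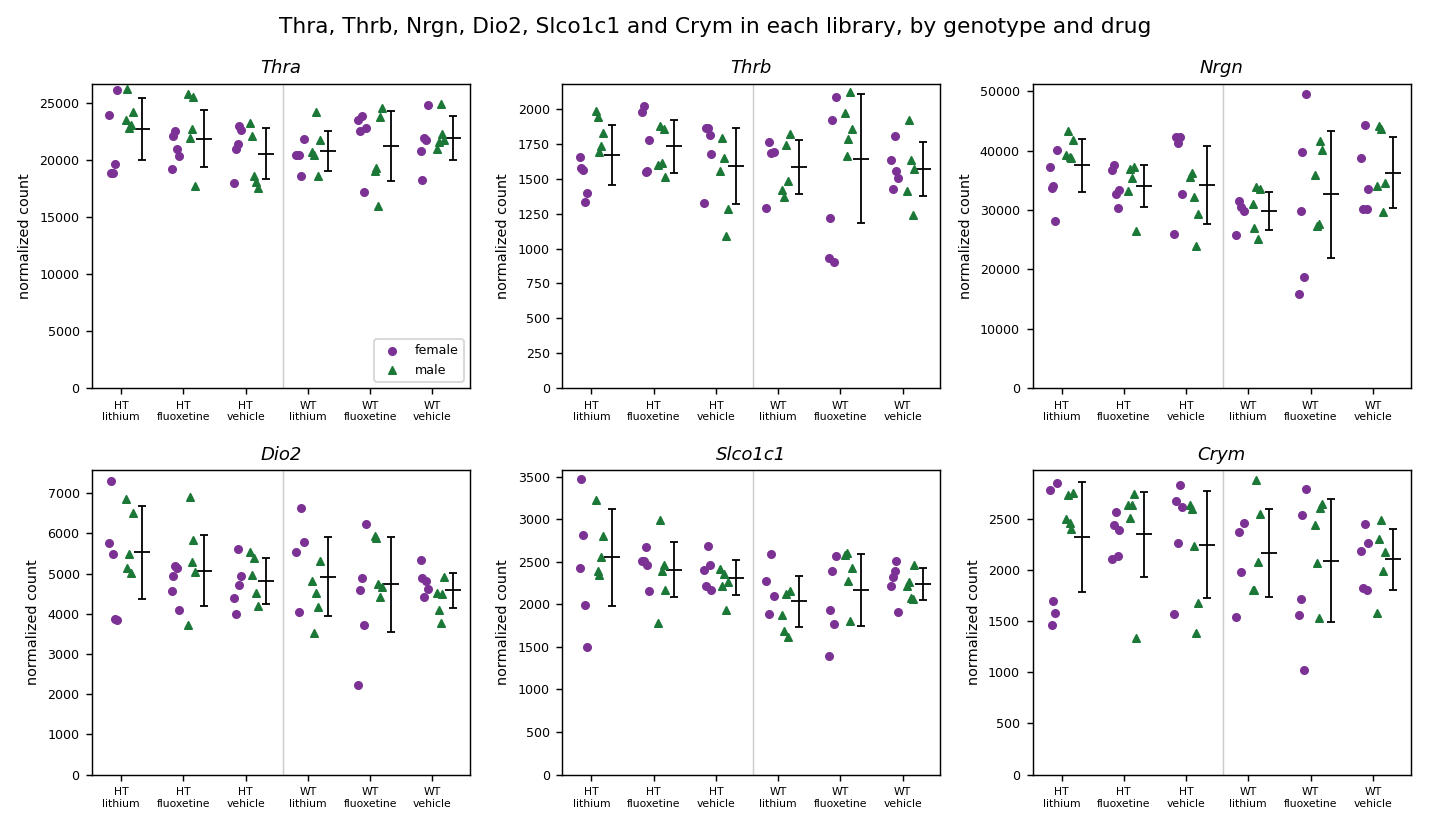
Normalized counts of Thra, Thrb, Nrgn, Dio2, Slco1c1 and Crym (vertical axes, from 0) in each of 59 libraries, by genotype and drug (horizontal axes), with females as circles and males as triangles; bars show the arm mean ± SD (n = 10, 9 for WT lithium). The arms overlapped for every gene, the 9 WT lithium libraries of Nrgn lay between 25175 and 33856, and the WT fluoxetine arm of Nrgn was the widest, from 15818 to 49601.

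The receptors are Thra (chr11:98740638-98769006, plus strand) and Thrb (chr14:17660261-18038090, plus strand). Thra counts ran from 18875 through a median of 23319 to 26232 in HT lithium, from 17712 through 22072 to 25816 in HT fluoxetine and from 17610 through 21225 to 23303 in HT vehicle libraries. They ran from 18611 through 20514 to 24250 in WT lithium, from 15981 through 22706 to 24597 in WT fluoxetine and from 18260 through 21755 to 24987 in WT vehicle libraries. The arms overlapped, and 5 of 10 HT lithium libraries lay above the highest HT vehicle library. Lithium was at 0.14 ± 0.07 on the log2 scale in HT mice (SE, adjusted p = 0.172, limma) and -0.08 ± 0.08 in WT mice (adjusted p = 0.561), and the difference between those effects was 0.22 ± 0.11 (adjusted p = 0.389). Thra carries 59.8% GC, and with the relation of fold change to GC content removed its lithium value in HT mice was -0.0021. The end of Thra overlaps Nr1d1, a clock gene on the opposite strand, by 1075 bases. The library kit kept the strand, per the labels' protocols, and whether counting used it is not given in the sources used here. Nr1d1 was at 0.26 ± 0.11 for lithium in HT mice (adjusted p = 0.0678) and -0.04 ± 0.11 in WT mice. Thrb averaged 1673 ± 213 in HT lithium, 1735 ± 190 in HT fluoxetine and 1592 ± 273 normalized counts in HT vehicle libraries (SD, n = 10 each). It averaged 1586 ± 196 in WT lithium, 1646 ± 461 in WT fluoxetine and 1572 ± 196 in WT vehicle libraries (SD, n = 9, 10 and 10). Its drug effects lay between 0.01 and 0.14 with standard errors of 0.10 to 0.11. In WT fluoxetine mice 3 of 10 libraries lay above the highest and 3 below the lowest WT vehicle library, and the 3 low ones were females that stood apart by their bulb index. Without the 8 libraries that stood apart, Thrb was 0.31 higher in WT fluoxetine than in WT vehicle mice (adjusted p = 0.0105), with 2 WT fluoxetine females left. In that setting 2004 of 16599 tested genes were called, 1215 of them as higher, against 939 called with all libraries.

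Hr (chr14:70552212-70573548, plus strand) was the one gene of the 7 that passed the test. Its counts ran from 1158 through a median of 1503 to 1836 in HT lithium, from 1044 through 1333 to 1526 in HT fluoxetine and from 791 through 1199 to 1437 in HT vehicle libraries. They ran from 951 through 1320 to 1449 in WT lithium, from 1015 through 1421 to 1762 in WT fluoxetine and from 981 through 1254 to 1460 in WT vehicle libraries. The HT lithium arm was the highest and the HT vehicle arm the lowest of the 6, and 6 of 10 HT lithium libraries lay above every HT vehicle library, while no WT lithium library lay above the highest WT vehicle library. Hr averaged 1502 ± 212 in HT lithium and 1127 ± 218 normalized counts in HT vehicle libraries (SD, n = 10 each). The difference was 0.43 ± 0.10 on the log2 scale, a fold of 1.345 (SE, adjusted p = 0.00182, limma).

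Hr was thus 1 of 7 genes called higher for lithium in HT mice, where 20.3% of all tested genes were called, 10.9% as higher and 9.43% as lower. In WT lithium mice 12.8% of all genes were called, 7.66% as higher and 5.11% as lower. There 0 of 7 were called, and Hr was at 0.03 ± 0.10 (SE, adjusted p = 0.889, limma); at an unadjusted p under 0.05 there was 1, Nrgn, against 26.7% of all tested genes. The difference between the genotypes' lithium effects on Hr was 0.39 ± 0.15, with a 95% interval of 0.10 to 0.69, and did not pass over all genes (adjusted p = 0.271), of which 0.00602% were called. Under lithium Hr was 0.24 ± 0.10 higher in HT than in WT mice, which did not pass (adjusted p = 0.387), and 6 of 10 HT lithium libraries lay above every WT lithium library. In vehicle mice Hr averaged 1127 ± 218 in HT and 1242 ± 176 in WT libraries (SD, n = 10 each), a difference of -0.15 that did not pass. In the 5 HT lithium males Hr had 1392, 1528, 1546, 1643 and 1771 normalized counts, against 797, 965, 1186, 1214 and 1316 in the 5 HT vehicle males, with no overlap. In the 5 HT lithium females it had 1158, 1265, 1400, 1478 and 1836, against 791, 1060, 1211, 1290 and 1437 in the 5 HT vehicle females, which overlapped. Without overlap, 5.96% of all tested genes were higher and 5.5% lower in HT lithium than in HT vehicle males, and 3.48% were higher and 3.51% lower in females. The bulb index lay between 0.075 and 0.24 in HT lithium males and between 0.142 and 3.08 in HT vehicle males, and between 0.16 and 3.04 in HT lithium and 0.0862 and 2.47 in HT vehicle females; its part within a sex was not tested.

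**Figure D2:**
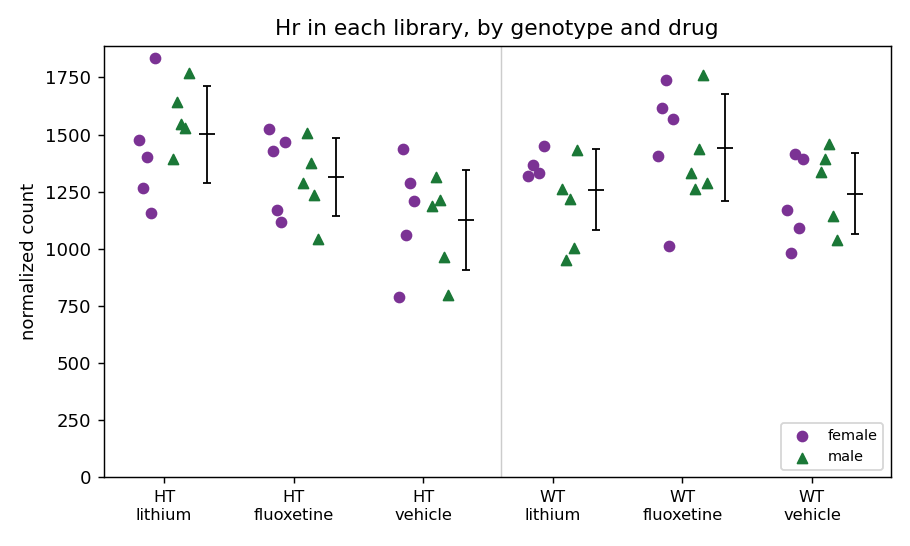
Normalized counts of Hr (vertical axis, from 0) in each of 59 libraries, by genotype and drug (horizontal axis), with females as circles and males as triangles; bars show the arm mean ± SD (n = 10, 9 for WT lithium). HT lithium libraries lay between 1158 and 1836 and HT vehicle libraries between 791 and 1437, while WT lithium libraries, at 951 to 1449, overlapped WT vehicle libraries, at 981 to 1460.

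HT vehicle female 1, the library high in choroid plexus markers, had the lowest Hr of its arm, 791. The call for lithium in HT mice held without it (0.36, adjusted p = 0.00735, limma) and without the 8 libraries that stood apart (0.31, adjusted p = 0.0289), but ended without all 9 (0.25, adjusted p = 0.0631). It held with the bulb index as a covariate (0.34, adjusted p = 0.000993) and with each library left out in turn (0.36 to 0.47). What these libraries' tissue adds to the Hr difference was not tested. Hr has 61.6% GC, more than 97.9% of the genes, and across the 16588 genes with a known GC content, which are not independent, the fold changes of this comparison rose with it (Spearman's rho 0.472); with that relation removed Hr was at 0.26 (adjusted p = 0.0451). Alongside Hr, 3 of 10 astrocyte markers (Aldoc, Fgfr3 and Aldh1l1) and 4 of 10 endothelial markers (Flt1, Slc2a1, Abcb1a and Cdh5) rose in HT lithium mice, against 10.9% of all tested genes, and none of either list fell. Summed astrocyte markers ran from 136540 to 187800 normalized counts in HT lithium and from 122510 to 164680 in HT vehicle libraries, and summed endothelial markers from 10985 to 15234 in HT lithium and from 9797 to 13588 in HT vehicle libraries; no marker of either list averaged under 1. Their part in the Hr result was not tested.

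Under fluoxetine Hr passed over both genotypes but within neither. Hr averaged 1316 ± 171 in HT fluoxetine and 1127 ± 218 in HT vehicle libraries (SD, n = 10 each), a log2 fold change of 0.24 ± 0.10 (SE, adjusted p = 0.321, limma). It averaged 1443 ± 234 in WT fluoxetine and 1242 ± 176 in WT vehicle libraries (SD, n = 10 each), at 0.21 ± 0.10 (adjusted p = 0.221). No gene of the 7 was called in either genotype alone, where 0.277% of genes were called in HT and 5.66% in WT mice (3.54% as higher, 2.11% as lower); at an unadjusted p under 0.05 Hr alone was counted in each, against 11.6% of all tested genes in HT and 20.6% in WT mice. Over both genotypes Hr rose under fluoxetine by 0.23 ± 0.07 (adjusted p = 0.0324), 1 of 7 where 11% of genes were called, 6.37% as higher and 4.65% as lower. Over both genotypes it also rose under lithium, by 0.23 ± 0.07 (adjusted p = 0.0133), 1 of 7 where 28.4% of genes were called, 15.3% as higher and 13.2% as lower. That lithium value is the mean of 0.43 in HT mice and 0.03 in WT mice, and Hr did not pass in WT mice alone (adjusted p = 0.889). Both drugs were set against the same vehicle libraries. The calls over both genotypes ended with the relation to GC content removed (lithium 0.15, adjusted p = 0.0731; fluoxetine 0.18, adjusted p = 0.0511) and in the 38 libraries with a bulb index of at most 1 (lithium 0.15, adjusted p = 0.132; fluoxetine 0.14, adjusted p = 0.264). The lithium call also ended without the 9 libraries named above (0.14, adjusted p = 0.0716), and the fluoxetine call in 9 of 59 fits with 1 library left out (0.19 to 0.26 over the 59 fits, adjusted p up to 0.0632). Those 9 libraries were HT fluoxetine female 5 and male 2, HT vehicle female 1 and male 5, WT fluoxetine females 2 and 3 and male 4, and WT vehicle female 2 and male 5.

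**Figure D3:**
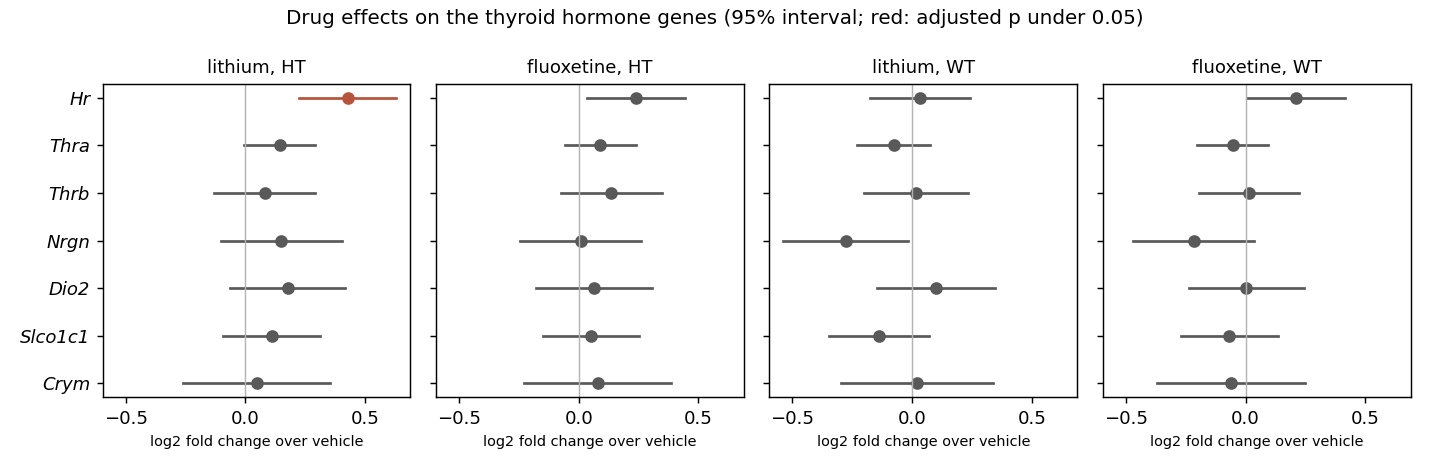
Log2 fold change over vehicle (horizontal axes) with its 95% interval for the 7 genes (vertical axis) under lithium and fluoxetine in HT and WT mice, from the limma model over 59 libraries; red marks an adjusted p under 0.05. Hr under lithium in HT mice, at 0.43 (interval 0.22 to 0.63), is the one red value, and Nrgn under lithium in WT mice, at -0.28 (interval -0.54 to -0.02), is the lowest.

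Nrgn (chr9:37544492-37552904, minus strand), the most abundant of the 7 per kilobase, had its highest mean in HT lithium and its lowest in WT lithium mice. Its counts ran from 28207 through a median of 38870 to 43316 in HT lithium, from 26502 through 34382 to 37599 in HT fluoxetine and from 23929 through 34134 to 42365 in HT vehicle libraries. They ran from 25175 through 30565 to 33856 in WT lithium, from 15818 through 32830 to 49601 in WT fluoxetine and from 29575 through 34264 to 44257 in WT vehicle libraries. All 9 WT lithium libraries lay below the median of the WT vehicle libraries, and 6 of 10 WT vehicle libraries lay above every WT lithium library. The difference, 29781 ± 3192 in WT lithium against 36280 ± 5975 in WT vehicle libraries (SD, n = 9 and 10), was -0.28 ± 0.13 on the log2 scale and did not pass (SE, adjusted p = 0.159, limma). None of the 8 libraries that stood apart was in either arm, so without them the value stayed at -0.28 while its pooled error and the adjustment over genes changed, and its adjusted p was 0.024. It passed with the bulb index as a covariate (-0.32, adjusted p = 0.00188). In the 38 libraries with an index of at most 1 it was -0.48 (adjusted p = 0.00149), with 4 WT vehicle libraries left. Of 16599 tested genes, 3029, 3423 and 1640 were called for lithium in WT mice in these settings, in the same order, against 2120 as reported. In HT mice lithium was at 0.15 ± 0.13 (adjusted p = 0.438). In males, the 5 HT lithium libraries (38834 to 43316) did not overlap the 5 HT vehicle libraries (23929 to 36251), whereas HT lithium females (28207 to 40097) overlapped HT vehicle females (25945 to 42365). Without overlap, 5.96% of all tested genes were higher in HT lithium than in HT vehicle males, and in those males the bulb index lay between 0.075 and 0.24 under lithium and between 0.142 and 3.08 under vehicle; its part was not tested.

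Between the genotypes under lithium, 8 of 10 HT libraries had more Nrgn than every WT library, at 37537 ± 4462 in HT against 29781 ± 3192 in WT lithium mice (SD, n = 10 and 9). The genotype difference under lithium was 0.33 ± 0.13 (SE, adjusted p = 0.343, limma), and the difference between the lithium effects was 0.43 ± 0.18 (adjusted p = 0.326). None of the 7 genes passed in either comparison, where 0% and 0.00602% of all genes were called. At an unadjusted p under 0.05 there were 3 genes in each, against 11.1% of all tested genes in the first and 12.2% in the second. Across all genes the values of both comparisons rose with GC content (Spearman's rho 0.358 and 0.498). Hr, Thra and Nrgn, the 3 genes in the second, have more GC than 97.9%, 95.2% and 92.4% of the genes. The part of GC content in these differences was not tested. In vehicle mice the genotypes differed by -0.15 to 0.07 over the 7 genes, and 0 of 7 passed, against 0% of all genes. Under fluoxetine the genotype differences ran from -0.13 to 0.21 (0 of 7, 0% of all genes), and the differences between the genotypes' fluoxetine effects from 0.03 to 0.23 (0 of 7, 0% of all genes). Female minus male differences in vehicle mice ran from -0.0013 to 0.13 (0 of 7, 1.98% of all genes), averaged over HT and WT mice. Female minus male lithium effects ran from -0.33 to 0.04 (0 of 7, 0.325% of all genes) and fluoxetine effects from -0.35 to 0.05 (0 of 7, 0.0783% of all genes). edgeR and DESeq2 on the recovered reads gave the same number of the 7 genes in all 14 comparisons.

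The other genes of the pathway were taken from 3 lists written by role, without the 7. Of 12 receptors and coregulators, 1 rose and 1 fell for lithium in HT mice, where 10.9% of all tested genes were called higher and 9.43% lower. In WT lithium mice 3 rose, against 7.66% of all genes, and over both genotypes 5 rose and 2 fell, against 15.3% and 13.2%. Ncoa3, a coactivator, rose by 0.23 ± 0.04 in HT (SE, adjusted p = 0.000102, limma) and 0.21 ± 0.04 in WT lithium mice (adjusted p = 0.000748). The coactivators Ncoa2 (0.21 ± 0.04, adjusted p = 0.000107) and Ncoa1 (0.15 ± 0.05, adjusted p = 0.0468) rose in WT lithium mice, and Hdac3, the deacetylase of the corepressor complex, fell by 0.10 in HT lithium mice (adjusted p = 0.0262). With 1 library left out the Ncoa1 call ended in 21 of 59 fits (adjusted p up to 0.106) and the Hdac3 call in 3, those without HT lithium female 5, HT vehicle male 2 or HT vehicle male 5 (adjusted p up to 0.0766). The list's median fold change was 0.05 in HT and 0.02 in WT mice, against -0.0018 in HT and -0.0036 in WT mice over all tested genes. Ncoa3 also rose in WT fluoxetine mice (0.18 ± 0.04, adjusted p = 0.00617), the 1 of 12 that passed there, against 3.54% of all genes called higher, a call that ended without the libraries that stood apart (0.12, adjusted p = 0.0788).

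Of 17 other genes known to respond to the hormone, 3 rose and none fell for lithium in HT mice, against 10.9% and 9.43% of all tested genes, and 0 of 17 passed in WT mice, against 12.8%. Over both genotypes 4 rose and 1 fell, against 15.3% and 13.2%. The neurofilament genes Nefh and Nefm rose by 0.48 ± 0.10 (SE, adjusted p = 0.000651, limma) and 0.43 ± 0.16 (adjusted p = 0.048) in HT lithium mice, and Thrsp, a regulator of lipid synthesis, by 0.33 ± 0.12 (adjusted p = 0.0494). The Nefm and Thrsp calls were at the edge of the threshold: with 1 library left out they ended in 33 and 37 of 59 fits, and without the 8 libraries that stood apart their adjusted p was 0.204 and 0.217. The list's median fold change was 0.14 in HT and 0.05 in WT mice, against -0.0018 in HT and -0.0036 in WT mice over all tested genes. Klf9, a transcription factor induced directly by the hormone, was at -0.05 ± 0.07 in HT (adjusted p = 0.67) and 0.17 ± 0.07 in WT lithium mice (adjusted p = 0.11). The myelin gene Mbp fell by 0.65 in WT fluoxetine mice (adjusted p = 0.0442), a call that ended in 16 of 59 fits with 1 library left out. In the same comparison 5 of 10 oligodendrocyte markers fell, against 2.11% of all tested genes; Mbp is among those markers, and the part of that cell type was not tested. Summed oligodendrocyte markers ran from 57000 to 184720 normalized counts in WT fluoxetine and from 91316 to 268200 in WT vehicle libraries, and none averaged under 1. Without the 8 libraries that stood apart, 1 of the 17 genes rose and 0 fell for lithium in HT mice. In that setting 2123 of 16599 tested genes were called, 1135 of them as higher. Of 7 other transport and metabolism genes tested, Slc3a2 was the one that passed for lithium in HT mice, where 20.3% of all tested genes did, and 0 of 7 passed in WT mice, where 12.8% did. Over both genotypes 2 of the 7, Slc3a2 and Slc7a5, rose under lithium, against 15.3% of all tested genes. Slc7a5 was the 1 that rose under fluoxetine, against 6.37%, and 0 fell under either drug. With 1 library left out, Slc7a5 ran from 0.18 to 0.23 for lithium (adjusted p up to 0.00536, limma). For fluoxetine it ran from 0.16 to 0.21 (adjusted p up to 0.0291).

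**Figure D4:**
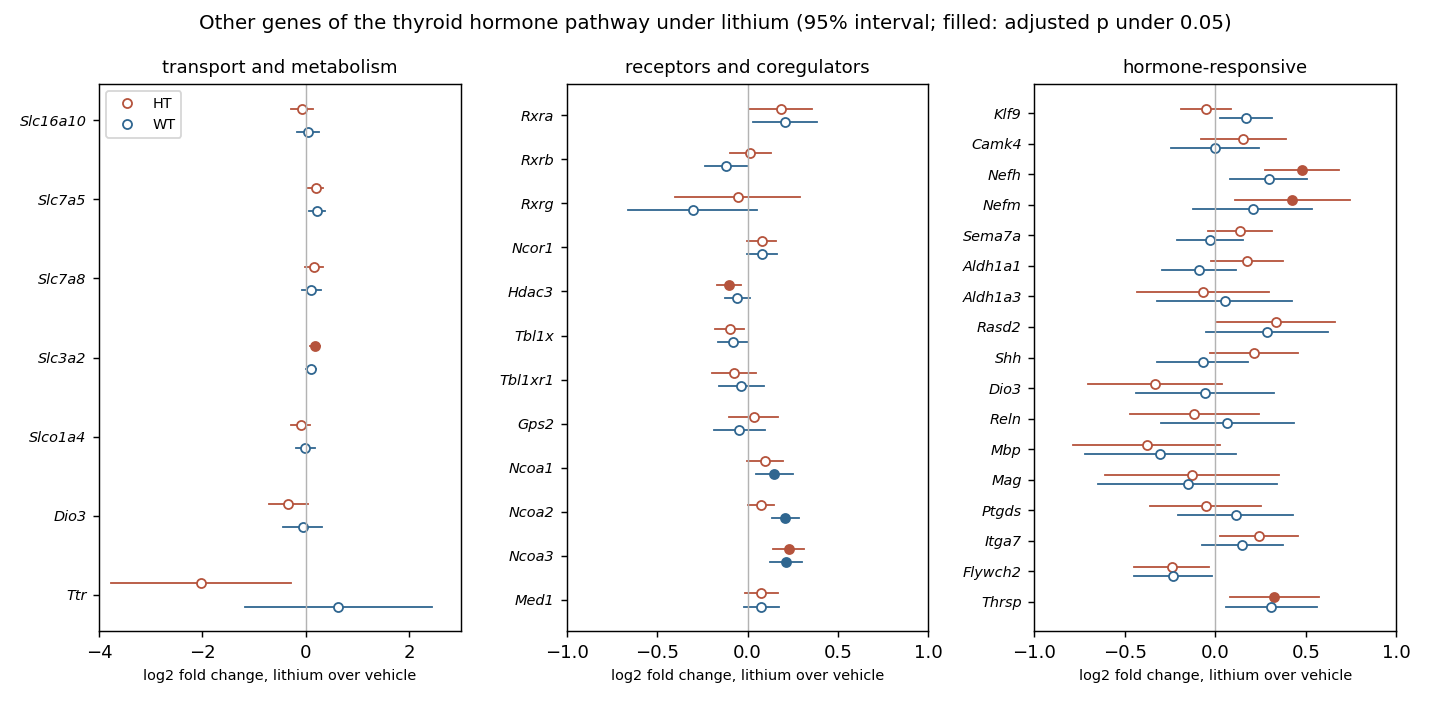
Log2 fold change for lithium over vehicle (horizontal axes, wider for transport and metabolism) with its 95% interval for the other genes of the pathway (vertical axes) in HT and WT mice; filled circles mark an adjusted p under 0.05. Ncoa3 is filled in both genotypes, and the wide intervals of Ttr, a product of the choroid plexus, span -3.78 to -0.28 in HT and -1.17 to 2.43 in WT mice. Without HT vehicle female 1, the library high in choroid plexus markers, Ttr in HT mice was at -0.78 (adjusted p = 0.31), against -2.03 with it.

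How the 7 genes varied together was described over the 59 libraries after the mean of each of the 12 groups of genotype, drug and sex had been removed. A family of 42 correlations was computed, 21 between genes and 21 with marker indices, with 100000 permutations within groups. Of the 21 gene pairs 18 were positive and 13 had an adjusted p under 0.05. The share of such pairs among all genes was not computed, so these counts do not set the 7 genes apart from others. Dio2 and Slco1c1 had Pearson's r = 0.85 and Spearman's rho = 0.80 (permutation p = 1e-05 for both, the smallest the permutations can give, adjusted p = 2.62e-05 for r). Without the 2 libraries farthest from the median of Dio2, the first gene of the pair, r was 0.83. With the bulb index as a covariate it was 0.85 and with the relation to GC content removed 0.84. Thrb and Nrgn had r = 0.88 and rho = 0.83 (permutation p = 1e-05 for both, adjusted p = 2.62e-05), at 0.84 without the 2 libraries farthest in Thrb and 0.69 with the bulb index as a covariate. Thra and Crym had r = 0.80 and rho = 0.78 (permutation p = 1e-05 for both, adjusted p = 2.62e-05), at 0.76 without the 2 libraries farthest in Thra and 0.66 with the covariate. Other pairs of the 5 genes Hr, Thra, Thrb, Crym and Nrgn depended more on the bulb index: with it as a covariate r was 0.15 for Thrb and Crym, against 0.71 without it, 0.28 for Hr and Nrgn, against 0.66, and -0.25 for Thra and Thrb, against 0.36. For Hr no relation passed with Dio2 (r = 0.07, rho = 0.04, permutation p = 0.658 and 0.778) or Slco1c1 (r = -0.06, rho = -0.0033, permutation p = 0.697 and 0.982).

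The 7 genes differed in how they followed the bulb index. Crym (r = -0.85, rho = -0.87), Nrgn (r = -0.81, rho = -0.82) and Thrb (r = -0.78, rho = -0.78) fell as it rose (permutation p = 1e-05 for all, adjusted p = 2.62e-05). Hr (r = -0.65, rho = -0.63) and Thra (r = -0.62, rho = -0.61) did so less closely (permutation p up to 3e-05). Dio2 (r = -0.21, rho = -0.17, permutation p = 0.269 and 0.281) and Slco1c1 (r = -0.15, rho = -0.22, permutation p = 0.398 and 0.161) did not pass. With the index of excitatory neuron markers Thrb had r = 0.95 and rho = 0.92, Nrgn 0.90 and 0.85 and Crym 0.81 and 0.79 (permutation p = 1e-05 for each). Hr had 0.65 and 0.64 (permutation p = 1e-05 and 2e-05) and Thra 0.48 and 0.47 (permutation p = 0.00014 and 0.00082). Dio2 had 0.41 and 0.23 (permutation p = 0.0516 and 0.13) and Slco1c1 0.39 and 0.35 (permutation p = 0.0237 and 0.0172). With the endothelial index Dio2 had r = 0.59 and rho = 0.52 (permutation p = 0.00017 and 0.00023) and Slco1c1 r = 0.59 and rho = 0.49 (permutation p = 0.00028 and 0.00069), whereas Thrb and Nrgn had r = -0.08 and -0.04 (permutation p = 0.645 and 0.808). Thra had r = -0.395 and rho = -0.38 (permutation p = 0.0137 and 0.00948). Hr had r = -0.28 and rho = -0.36 (permutation p = 0.0518 and 0.0119), and Crym r = -0.32 and rho = -0.35 (permutation p = 0.0613 and 0.0203). What moves these libraries together was not tested.

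**Figure D5:**
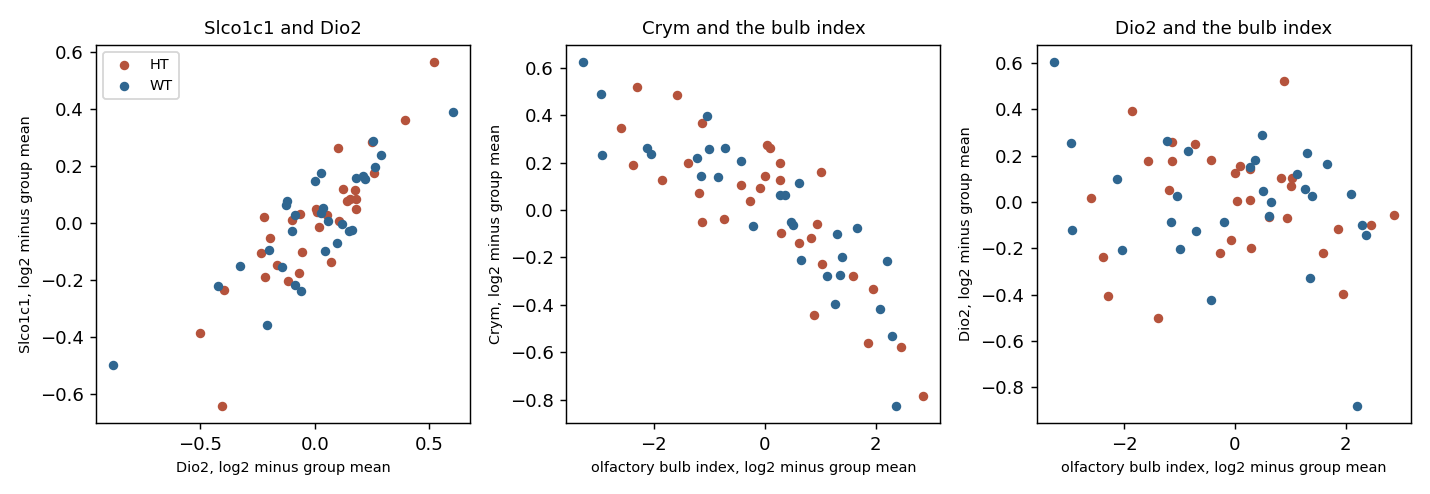
Each point is 1 of 59 libraries, with log2 values after the mean of its group was removed on all axes, HT libraries in red and WT libraries in blue. Slco1c1 follows Dio2 (r = 0.85, left), Crym falls as the olfactory bulb index rises (r = -0.85, middle), and Dio2 does not follow that index beyond the spread (r = -0.21, right).

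The genes nearest to each of the 7, by Pearson's r over the same 59 libraries and among all tested genes, are given as a description. Those of Dio2 were Slco1c1 (0.85), Fcrls (0.76) and Rab22a (0.73), and those of Slco1c1 were P2ry12 (0.88), Dio2 (0.85) and Gpr34 (0.81); P2ry12, Gpr34 and Fcrls are known as microglial genes. Thrb was closest to Cap2, Cobl and Lgi1 (0.95 to 0.96), Nrgn to Olfm2, Itpka and Camta2 (0.94 to 0.95) and Crym to Apbb1, Spryd3 and Apba2 (0.94). Thra was closest to Eml2 (0.92), Epn1 (0.90) and Agap2 (0.88), and Hr to Ttll11 (0.85), Clstn1 (0.83) and Atp2b2 (0.83). The values being correlated share their library, its dissection and its depth.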

How the data were processed

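Per the labels' protocols, libraries were made with a TruSeq stranded mRNA kit. The authors deposited 1 table of normalized counts (a signal per gene, read count divided by a size factor); per the submitters' processing notes the tools were Salmon 0.11.2, DESeq2 1.19.11 and R 3.6.0 and the build GRCm38. Whole reads were recovered from the steps of the values (100% whole within 0.001), giving 22984556 to 35969254 reads per library and size factors of 0.783 to 1.245; this spread sets the counting precision. Gene IDs were matched to symbols and transcripts of GENCODE M21.

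The 7 genes and all gene lists were chosen with earlier results of these data known; some listed pathway genes are not reported here, and list counts and medians leave them out. The test, planned for normalized values, was limma 3.58.1 (R 4.3.3) on log2(value + 1) of 16599 genes with a mean of at least 10, with 12 group means, 47 residual degrees of freedom and 14 comparisons; a gene was called at a Benjamini-Hochberg adjusted p under 0.05 over all genes. The text names the 7 genes, up to 4 called genes per list and comparison by smallest p, Klf9, Dio3 and Nr1d1 whatever their values, and the 3 genes nearest to each of the 7; Ttr was named after its values were seen. Alternatives were pseudocounts of 0.5 and 5, no filter, quantile normalization, edgeR 4.0.16 and DESeq2 1.42.0 on the recovered reads, a replicate block, GC removal by loess (span 0.5, degree 1; GC known for 99.9% of genes), both of these, leaving out the 8 libraries that stand apart and each library in turn; the bulb index as a covariate, the restriction to an index of at most 1, and leaving out the 8 and HT vehicle female 1 (choroid plexus index over 10) were added after seeing the data. Scripts were tested on simulated data.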

Additional observations from a re-analysis of the deposited data

Results flagged for a closer look

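Of 84 tests, 1 for each of the 7 genes in each of 12 groups of 4 or 5 libraries, 3 found a library whose gap to its nearest neighbour took up more of the group's range than Dixon's 95% critical value; chance gives such a gap in about 1 of 20 groups. Thra in WT fluoxetine female 4 had 17193 normalized counts, the lowest of 5, with the next at 22590, a gap of 0.81 of the range against a critical value of 0.71. That library also stood apart by its bulb index. Crym in HT fluoxetine male 5, another of the libraries that stood apart, had 1332 normalized counts, with the next of 5 at 2504 and a gap of 0.83 of the range against 0.71. Thrb in WT lithium female 1 had 1288 normalized counts, with the next of 4 at 1687 and a gap of 0.842 of the range, above the higher critical value for 4 libraries.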

How the results depend on the processing

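Over 13 other settings, 37 fold changes of the 7 genes kept direction and side of the threshold in 419 cases, turned in 40, passed newly in 15 and lost their call in 7; 28 of other pathway genes kept both in 307 cases and lost their call in 57. With the GC relation removed, 0 genes of the 7 passed for either drug over both genotypes (0 also for lithium with the replicate block), and Thra under lithium in HT mice was at -0.0021, with or without the block. In that setting 4584 of all genes passed for lithium and 1749 for fluoxetine over both genotypes, and 4640 for lithium with the block. Without the libraries that stood apart, 1 gene of the 7 passed for lithium in WT mice, 2 for fluoxetine in WT mice, 2 for fluoxetine over both genotypes and 1 between genotypes under lithium. Of all genes, 3029, 2004, 2356 and 40 passed there, in the same order. Without those libraries and HT vehicle female 1, 0 of the 7 passed for lithium in HT mice and over both genotypes, 1 in WT mice, 2 for fluoxetine in WT mice and over both, and 1 between genotypes under lithium. Of all genes, 1957, 4825 and 3185 passed there for lithium in HT mice, over both genotypes and in WT mice. For fluoxetine in WT mice and over both the counts were 2291 and 1985, and between genotypes under lithium 51. With the bulb index as a covariate, 1 passed for lithium in WT mice, 1 for fluoxetine in WT mice and 2 for each drug over both genotypes. Of all genes, 3423 and 3142 passed there in WT mice, and 5999 for lithium and 3375 for fluoxetine over both. With an index of at most 1, 1 passed for lithium in WT mice, 3 between genotypes under lithium, 1 for the difference between lithium effects and 0 for fluoxetine over both. Of all genes, 1640, 1339, 96 and 860 passed there, in the same order. Under quantile normalization 1 passed for lithium in WT mice, where 2246 of all genes did.

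Values that turned sign under the covariate were, for lithium in HT mice, Thrb -0.0281 and Crym -0.1252, for lithium in WT mice Thrb -0.0178 and Crym -0.0306, for fluoxetine in HT mice Crym -0.0306 and Nrgn -0.0782, and for fluoxetine in WT mice Thrb -0.069 and Dio2 -0.0239. With an index of at most 1 they were Thrb -0.0551 and Slco1c1 -0.0619 (lithium, HT), Hr -0.0702 and Thrb -0.0417 (lithium, WT), Crym -0.0736 and Nrgn -0.1122 (fluoxetine, HT), and Thra 0.0087, Slco1c1 0.1076 and Crym 0.1112 (fluoxetine, WT). Without the libraries that stood apart they were Crym -0.1234 (lithium, HT), Nrgn -0.0257 (fluoxetine, HT), and Slco1c1 0.1008, Crym 0.2176 and Nrgn 0.1146 (fluoxetine, WT). Without these and HT vehicle female 1 they were Thrb -0.0158 and Crym -0.1956 (lithium, HT), Crym -0.0355 and Nrgn -0.0862 (fluoxetine, HT), and Slco1c1 0.1008, Crym 0.2176 and Nrgn 0.1146 (fluoxetine, WT). Under quantile normalization they were Thrb -0.0055 and Crym -0.0053 (lithium, WT), Nrgn -0.0861 (fluoxetine, HT), and Thrb -0.0024 and Dio2 -0.0248 (fluoxetine, WT). Nrgn for fluoxetine in HT mice was at -0.0382 with GC removed, with or without the block, -0.002 in edgeR and -0.0042 in DESeq2. None of these values passed the test in its main form, and the cause was not tested.

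With 1 library left out, values crossed 0 for lithium in HT mice in Crym (-0.0251 to 0.1026), for lithium in WT mice in Hr (-0.0052 to 0.0688), Thrb (-0.0236 to 0.0669) and Crym (-0.0279 to 0.0912), for fluoxetine in HT mice in Nrgn (-0.0517 to 0.0515), and for fluoxetine in WT mice in Thrb (-0.0667 to 0.0839), Dio2 (-0.0732 to 0.1125) and Crym (-0.1389 to 0.0424); the genes passing for fluoxetine over both genotypes ran from 0 to 1. The labels do not say that equal numbers mark a shared litter or batch, and 8 of 59 libraries were closest to their own number (median correlations by number -0.022 to 0.016, with 21.8% to 36.4% of same-number pairs over 0.1). The replicate block left Hr for lithium in HT mice at 0.43 (adjusted p = 0.00199) and changed no count of the 7 genes. Over the other 13 settings the count of all genes called ran from 1957 to 4263 for lithium in HT mice (3374 as reported), 1640 to 3423 in WT mice (2120) and 3713 to 5999 over both (4719), from 0 to 197 for fluoxetine in HT mice (46), 266 to 3142 in WT mice (939) and 860 to 3375 over both (1830). It ran from 0 to 1339 between genotypes under lithium (0), 0 to 29 under fluoxetine (0) and 0 to 6 under vehicle (0), 0 to 96 for the difference between lithium effects (1), 0 to 2 between fluoxetine effects (0), and for the sexes 18 to 217 under lithium (54), 4 to 216 under fluoxetine (13) and 176 to 811 under vehicle (328). For fluoxetine it was 0 in HT mice without HT fluoxetine female 5 or male 3 and 477 in WT mice without WT fluoxetine female 2. Leaving out 1 library, it ran for the sexes under lithium from 10 (HT vehicle male 2) to 165 (HT vehicle male 5), under fluoxetine from 7 (HT fluoxetine female 5) to 391 (WT fluoxetine female 5) and under vehicle from 146 (HT vehicle male 2) to 587 (HT vehicle male 5), and between genotypes under fluoxetine from 0 to 112 (WT fluoxetine female 5). The share called higher was 57.4% under DESeq2 for fluoxetine in HT mice (73.9% as reported) and 85.7% in WT mice with an index of at most 1 (62.6% as reported) and 69.2% over both (57.8%).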
